A study of Mus musculus with 8 samples.

Results

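The 6 genes described here encode proteins by which microglia, the resident macrophages of the retina, are recognised or act, together with components of complement. They were chosen by symbol from the authors' deposited table of KO against WT cells, and all 6 were among its 1802 genes. Mouse retinas were dissociated with papain and sequenced as single cells, in 3 control libraries titled WT and 5 libraries titled KO, whose genotype label is ABCA1KO. The sources used here do not give strain, age, sex, the deleted part of the gene, the cells in which it was deleted or the number of animals per library. ABCA1 is a transporter that passes cholesterol and phospholipid out of cells.

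For each gene the authors' deposited table gives 3 kinds of value, with all cells of a genotype pooled. The log difference is the authors' average log difference between KO and WT cells, KO minus WT, read as a natural log. How the cells were averaged is not given here. The share is the percent of cells with a value above 0. The adjusted p is the authors' own, and a gene was counted as called where it was under 0.05. The values appear to be batch-integrated, so that neither a fold change of transcripts nor their detection can be read from them. No value per library, error, number of cells or sequencing depth was analysed here, and the variation among libraries is unknown. Fewer cells of a type and less RNA per cell cannot be told apart in values pooled over all cells.

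Microglia survey the retina with fine processes and take up debris and synaptic material. Classical complement starts when C1q, built from the chains encoded by C1qa, C1qb and C1qc, binds a target and its associated proteases cleave C4 and then C2. In the retina and brain, C1q comes largely from microglia, whereas C4 is also made by other glia. The comparison addresses how retinal cells of the ABCA1 knockout libraries differ from controls, in a series whose title concerns astrocytes and optic neuropathy.

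Of the 6 genes, C1qb, Ctss, Cd14 and Cx3cr1 were called higher in KO and Aif1 and C4b lower in the authors' deposited table. All 6 were therefore called, where 93.2% of all listed genes were called, 69.1% higher and 24.1% lower. That split is close to the background and says little about these 6 genes as a set. Their median log difference was 0.0201 in the authors' deposited table, against 0.01004 over all 1802 genes. Read against that median gene in place of 0, the same 4 genes were higher and the same 2 lower, where 45.9% of all listed genes were called above the median and 47.3% below it. Read against the 100 genes nearest in share of KO cells, Cx3cr1 lay at their middle (-0.000155, with 50 of the 100 below it). By sign alone the split became 3 higher and 3 lower. The authors' adjusted p was not recomputed for these readings. The differences were small. The highest and lowest log differences of any gene in the authors' deposited table were 0.296 and -0.297.

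All 6 calls stood at an adjusted p under 0.01, where 68.3% of all listed genes were called higher and 23.6% lower. They also stood with Benjamini-Hochberg adjustment of the raw p over the listed genes, where 74.1% were called higher and 25.9% lower, that is every listed gene.

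**Figure D1:**
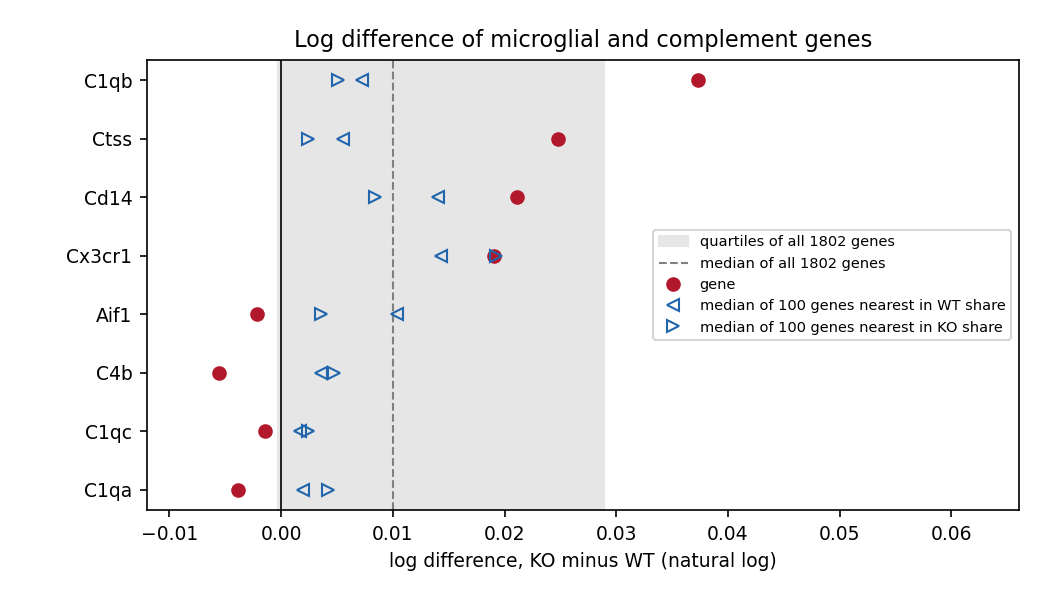
Log difference, KO minus WT on a natural log scale (horizontal axis), of the 6 genes and of C1qa and C1qc (vertical axis), as filled circles. Open triangles are medians of the 100 genes nearest in share of WT or KO cells, the grey band spans the quartiles of all 1802 genes and the dashed line is their median. C1qb at 0.0373 lies beyond the upper quartile of 0.0289, and C4b, C1qa, Aif1 and C1qc lie under 0.

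C1qb, which encodes the B chain of C1q, had the largest log difference of the 6. It was 0.0373 in the authors' deposited table (adjusted p = 1.59e-24), which placed C1qb at rank 311 from the highest of 1802 genes. The share of cells above 0 was 48.3% in KO and 31.6% in WT in the authors' deposited table, a gain of 16.7 percentage points. That gain was below the median gain of 20.8 points over all listed genes. Among the 100 genes nearest to C1qb in share of WT cells, 97 had a smaller log difference, and among the 100 nearest in share of KO cells 96 did.

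The genes of the other C1q chains did not go the same way as C1qb. C1qa had a log difference of -0.00387 and C1qc of -0.00146 in the authors' deposited table, and both were called lower, C1qa with an adjusted p listed as 0 and C1qc with 4.26e-69. An adjusted p listed as 0 is one too small for the file to hold. The share of cells above 0 nevertheless differed most for C1qa of the 3 chains, from 18.7% in WT to 46.1% in KO in the authors' deposited table. That gain of 27.4 points for C1qa was exceeded by 192 of the 1802 genes. For C1qc the share was 18.3% in WT and 28.8% in KO in the authors' deposited table, a gain of 10.5 points. The chain with the highest log difference was thus not the chain with the largest gain in share. A test of the difference between the chains was not possible, since the table has no values per library.

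The C1q genes are neighbours on the minus strand of chromosome 4. In the GENCODE annotation of GRCm38, C1qb runs from 136880129 to 136886187, C1qc from 136889804 to 136893065 and C1qa from 136895917 to 136898803, so the 3 genes span 18.7 kb. Of the 6 genes, RefSeq promoters of GRCm38.p6 were searched here for 4, each with 250 bases before and 50 after the start. The promoter of Cd14 was not searched, and none was found for C4b. Promoters of C1qb and C1qc, neighbours whose log differences have opposite signs, and of Ctss and Aif1, called in opposite directions, are shown 5′ to 3′ on the strand of the gene. Capitals mark matches on either strand to GAGGAA, the core bound by PU.1, a factor of macrophages and microglia, or to GAAA repeated after a gap of 2 bases, the core of the interferon response element.
C1qb, chr4:136886151-136886450, minus strand: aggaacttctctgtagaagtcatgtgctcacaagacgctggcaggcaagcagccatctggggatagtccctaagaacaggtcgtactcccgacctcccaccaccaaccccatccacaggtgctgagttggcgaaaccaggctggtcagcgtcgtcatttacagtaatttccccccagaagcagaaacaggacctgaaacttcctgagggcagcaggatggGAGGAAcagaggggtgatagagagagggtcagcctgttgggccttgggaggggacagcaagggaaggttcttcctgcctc
C1qc, chr4:136892865-136893164, minus strand: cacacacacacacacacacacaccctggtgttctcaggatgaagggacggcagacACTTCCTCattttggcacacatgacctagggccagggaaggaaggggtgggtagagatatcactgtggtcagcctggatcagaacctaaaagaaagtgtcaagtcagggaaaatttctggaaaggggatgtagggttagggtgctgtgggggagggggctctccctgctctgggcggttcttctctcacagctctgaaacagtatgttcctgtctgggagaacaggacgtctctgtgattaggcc
Ctss, chr3:95526536-95526835, plus strand: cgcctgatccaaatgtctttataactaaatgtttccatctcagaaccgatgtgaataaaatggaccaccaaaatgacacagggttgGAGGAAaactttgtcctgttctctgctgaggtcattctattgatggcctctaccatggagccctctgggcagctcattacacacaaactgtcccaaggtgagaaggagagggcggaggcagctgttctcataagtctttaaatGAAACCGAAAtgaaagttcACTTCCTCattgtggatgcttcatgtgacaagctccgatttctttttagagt
Aif1, chr17:35176003-35176302, minus strand: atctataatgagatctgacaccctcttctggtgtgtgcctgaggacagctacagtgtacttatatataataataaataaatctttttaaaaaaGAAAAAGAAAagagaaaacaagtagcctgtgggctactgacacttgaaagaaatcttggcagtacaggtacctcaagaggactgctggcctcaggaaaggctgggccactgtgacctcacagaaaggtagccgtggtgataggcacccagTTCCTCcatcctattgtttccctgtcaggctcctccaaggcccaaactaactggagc

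GAGGAA or its reverse complement was found in 28.3% of 32851 RefSeq promoters of that length. It was found in all 4 promoters shown, which leave out Cx3cr1 and include C1qc, not one of the 6 genes. The longer GAGGAAGT, which contains GAGGAA, was found in 3.20% of the promoters, C1qc and Ctss among them, in both as ACTTCCTC. The interferon core was found in 3.44% of the promoters, Ctss (as GAAACCGAAA) and Aif1 (as GAAAAAGAAA) among them. In Ctss that match starts at -21 and the one to ACTTCCTC at -2 relative to the start. The promoter of Cx3cr1, the other one searched, is not shown and held 0 matches to these motifs. Genes called higher and lower both held matches, and a match is a description of the letters only.

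C4b, which encodes complement C4, was called lower although more KO cells had a value above 0. Its log difference was -0.00552 in the authors' deposited table (adjusted p = 2.03e-48), at rank 1511 of 1802 for C4b. The share for C4b was 47.1% in KO and 28.9% in WT in the authors' deposited table, a gain of 18.2 points. Such opposite signs were common: of 434 genes called lower in the authors' deposited table, 423 (97.5%) had a larger share of KO cells above 0, as had 97.9% of all listed genes. Among the 100 genes nearest to C4b in share of WT cells, 17 had a lower log difference. C4b lies on chromosome 17, minus strand, from 34728380 to 34743882, and its near-identical copy C4a lies 65.2 kb away. C4a was not listed, and how reads shared by the 2 copies were treated is not given here, so the value of C4b is uncertain.

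Ctss, which encodes cathepsin S, a lysosomal cysteine protease of microglia and other antigen-presenting cells, had the smallest gain in share of the 6. Its log difference was 0.0248 in the authors' deposited table, where the adjusted p is listed as 0. The share for Ctss was 32.1% in KO and 31.1% in WT in the authors' deposited table, a gain of 1.0 point. Only 51 of the 1802 genes had a smaller gain than Ctss. Among the 100 genes nearest to Ctss in share of WT cells the median gain was 19.1 points and 3 genes had a smaller one. The log difference of Ctss was above that of 80 of those genes, and above that of 96 of the 100 nearest in share of KO cells. A raw p of 0 was listed for 183 genes, whose median gain was 29.2 points, and 17 of them, Ctss included, had a gain of at most 1.0 point. Ctss lies on the plus strand of chromosome 3 from 95526786 to 95556403 and overlaps 1 annotated pseudogene on the same strand, Hmgb1-ps5, which was not listed.

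**Figure D2:**
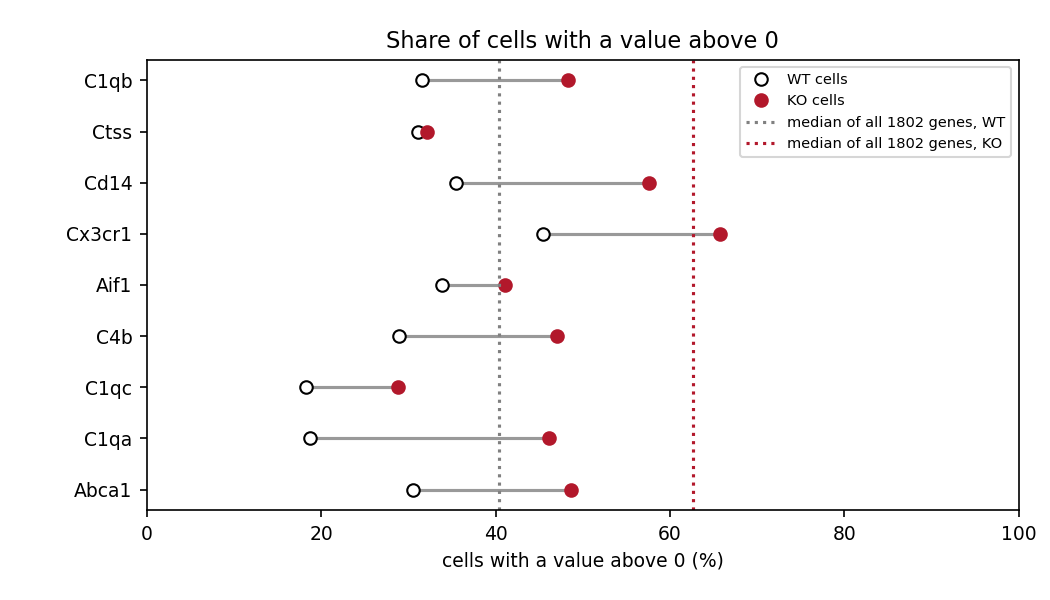
Percent of cells with a value above 0 (horizontal axis) in WT (open circles) and KO (filled circles) for the 6 genes, C1qa, C1qc and the targeted gene Abca1, with dotted lines at the medians of all 1802 genes. The share was larger in KO for every gene shown, least for Ctss (31.1% to 32.1%) and most for C1qa (18.7% to 46.1%).

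Cx3cr1 encodes the receptor for fractalkine, a chemokine on neurons, and is used to label microglia. Its log difference was 0.0190 in the authors' deposited table (adjusted p = 2.08e-241). The share for Cx3cr1 was 65.8% in KO and 45.4% in WT in the authors' deposited table, the highest of the 6 genes in both genotypes. The gain of 20.4 points was close to the median of 20.8. Relative to the 100 genes nearest to Cx3cr1 in share of WT cells the log difference was higher by 0.00471. Relative to the 100 nearest in share of KO cells it was -0.000155, with 50 of those genes below it. Its sign turned with that reading, but Cx3cr1 lay at the middle of those genes. Cx3cr1 lies on the minus strand of chromosome 9, where its annotated span from 119901616 to 120069879 overlaps 9 other annotated genes, 3 on the same strand and 6 on the opposite one. None of the 9 was listed, and whether the authors' counting used strand is not given here.

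Aif1, which encodes the actin-binding protein IBA1 and is the usual antibody marker of microglia, was called lower. Its log difference was -0.00213 in the authors' deposited table (adjusted p = 4.47e-09), the weakest of the 6. The share for Aif1 was 41.1% in KO and 33.9% in WT in the authors' deposited table. The gain of 7.2 points was smaller than that of 1646 of the 1802 genes. Among the 100 genes nearest to Aif1 in share of WT cells, 18 had a lower log difference and 7 a smaller gain. Aif1 lies on chromosome 17, minus strand, from 35170991 to 35176068. Aif1 and Cx3cr1, both used to identify microglia, thus had log differences of opposite sign over all pooled cells, which are not values of microglia alone.

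Cd14, on chromosome 18, encodes a co-receptor that hands lipopolysaccharide to Toll-like receptors. Its log difference was 0.0211 in the authors' deposited table (adjusted p = 1.04e-115). The share for Cd14 was 57.6% in KO and 35.5% in WT in the authors' deposited table. The gain of 22.1 points was the largest of the 6 and the only one above the median of 20.8. Among the 100 genes nearest to Cd14 in share of WT cells, 67 had a smaller log difference, so Cd14 stood less far from genes of like share than C1qb.

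**Figure D3:**
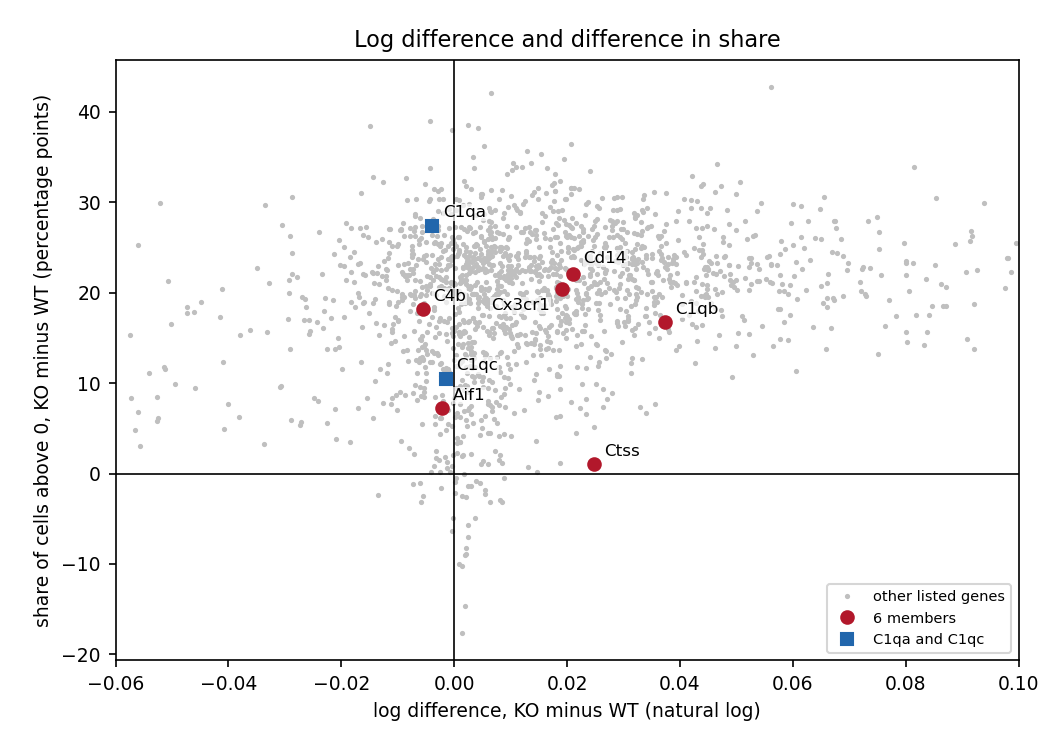
Log difference, KO minus WT on a natural log scale (horizontal axis), against the difference in share of cells above 0 in percentage points (vertical axis), 1 point per gene, with 82 genes outside the horizontal range of -0.06 to 0.1 not drawn. Ctss lies at 0.0248 and 1.0 point, near the lower edge of the cloud, whereas C1qa lies left of 0 with 27.4 points.

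The shares of the 6 genes were mostly below those of other listed genes. In WT the 6 genes had a value above 0 in 28.9% to 45.4% of cells, with a median of 32.8% against 40.4% over all listed genes of the authors' deposited table. In KO the range was 32.1% to 65.8% and the median 47.7% against 62.7% in the authors' deposited table. Microglia are a small part of the cells of a retina, so shares of this size over all cells cannot be read as shares of microglia.

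The genes most like each member were found by the mean difference in percentile rank over the log difference and both shares, which are 3 values from 2 pooled groups. For C1qb they were Gabrb1, Kctd12 and Pkd2, at distances of 1.69, 2.06 and 2.69 percentile points. Gabrb1 was not called, although its log difference of 0.0327 and shares of 47.8% in KO and 31.3% in WT were close to those of C1qb. The authors' calls thus do not follow these 3 values alone. For C4b they were Papd5, Agt and Cnn2 (1.55 to 1.92 percentile points), and for Cx3cr1 Rpl13a, Ltbp3 and Nipbl (1.80 to 2.37). Aif1 was nearest to Gm45509, Kcne1l and BC028528 (1.03 to 1.33 percentile points), and Cd14 to Utrn, Esyt2 and Spock1 (1.43 to 1.88). Ctss was nearest to Tshz2 and Col1a2 (2.60 and 2.77 percentile points). None of the genes named here was another of the 6.

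Genes of microglial identity split close to the background, where 69.1% of all listed genes were called higher and 24.1% lower. The list includes Cx3cr1 and Aif1 themselves, so it is not separate from the 6 genes. Of 22 markers, 11 were listed, of which the authors' deposited table called 8 higher and 3 lower. Their median log difference of 0.00874 was below that of all listed genes, 0.01004. Against the median gene the split became 5 higher and 6 lower. Among those furthest from 0 in the authors' deposited table were the matrix gene Sparc at 0.0649 and Cx3cr1. Next came Olfml3 at 0.0183, the Fc receptor chain gene Fcer1g at 0.0151 and Ly86 at -0.0119 in the authors' deposited table. Sparc is also in the list of astrocyte and Müller glia genes. Further markers, chosen after their values were seen, lay closer to 0 in the authors' deposited table: the signalling adaptor Tyrobp at 0.00874, the purinergic receptor P2ry12 at 0.000755 and the growth factor receptor Csf1r at -0.00336. Even so, the share for P2ry12 was 65.5% in KO and 39.3% in WT, and for Csf1r 35.1% and 29.6%, in the authors' deposited table. The gains in share of the 11 markers ran from 5.5 to 38.2 points, with a median of 20.4, which is the gain of Cx3cr1 itself.

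Genes of microglial activation went both ways, also close to that background. Of 30 genes 13 were listed, of which the authors' deposited table called 8 higher and 3 lower and left 2 without a call, with a median log difference of 0.00923. Read against the median gene, 5 were higher and 6 lower. Furthest from 0 in the authors' deposited table lay the fatty acid binding protein gene Fabp5 at 0.240, the ferritin heavy chain gene Fth1 at -0.0812, Apoe, an apolipoprotein gene, at 0.0783 and the tetraspanin gene Cd9 at -0.0305. Of the called genes, Ctss and Cd14 came next. Fabp5, Fth1, Apoe and Cd9 are expressed by many other cells than microglia. Spp1, which encodes osteopontin and was chosen after its value was seen, lay at 0.000870 without a call (adjusted p = 0.315 in the authors' deposited table).

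In the classical complement list, 4 of 11 genes were listed, and they are the 4 already described: C1qb was called higher and C4b, C1qa and C1qc lower in the authors' deposited table. Their median log difference was -0.00266. Of 22 regulators and other components of complement, 7 were listed, and the authors' deposited table called 5 higher and 2 lower, at a median of 0.0108, a split near that of all listed genes (69.1% higher and 24.1% lower). Against the median gene it became 4 higher and 3 lower. The highest in the authors' deposited table were Clu at 0.0503, whose product clusterin blocks the terminal complex, C1ql1, a synaptic C1q-like gene, at 0.0387, the chaperone gene Calr at 0.0253 and Serping1, the C1 inhibitor, at 0.0108. The lowest was Vtn, which encodes vitronectin, at -0.125 in the authors' deposited table. C3, the component on which all complement routes converge, was not listed, so nothing can be said of it.

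Lysosomal genes were called higher at about the rate of all listed genes, 69.1%. Of 20 genes 9 were listed, of which the authors' deposited table called 7 higher and 1 lower and left 1 without a call, at a median log difference of 0.00721. Against the median gene the split became 3 higher and 5 lower. Beside Ctss, those called higher included Ctsz at 0.0127, Ctsc at 0.00721 and Cd68, a lysosomal glycoprotein gene of phagocytes, at 0.00630 in the authors' deposited table. The 1 gene called lower was Cst3, which encodes the secreted cathepsin inhibitor cystatin C, at -0.214 in the authors' deposited table. The share for Cd68 was 17.7% in KO and 10.1% in WT in the authors' deposited table.

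Of the signalling partners of these receptors, few were listed. In the list of Toll-like receptor signalling 3 of 19 genes were listed, the immediate early genes Fos at 0.0454 and Jun at 0.00286 and Cd14, all called higher in the authors' deposited table, where 69.1% of all listed genes were, and 0 Toll-like receptor genes were among them. Against the median gene 2 were higher and Jun lower. Of 7 genes of ligands of CX3CR1 and CSF1R, the proteases that shed them and TGF-beta, 3 were listed. Adam10, which encodes a protease that sheds fractalkine, had 0.0367 and Tgfb1 0.00668 in the authors' deposited table, and both were called higher, but Tgfb1 lay below the median gene, which made the split 1 higher and 1 lower. Tgfb2, chosen after its value was seen, had 0.0303 without a call (adjusted p = 0.174 in the authors' deposited table). A gene that is not listed is not shown to be unchanged.

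**Figure D4:**
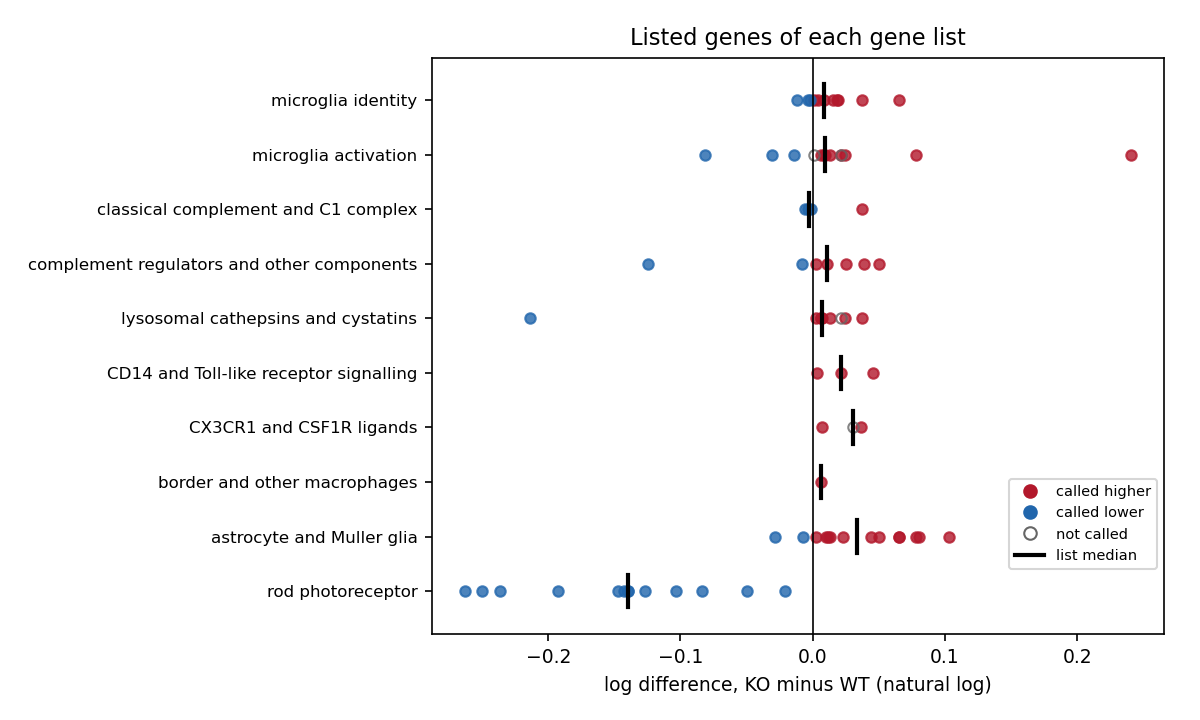
Log difference, KO minus WT on a natural log scale (horizontal axis), of every listed gene of 10 gene lists (vertical axis), 1 circle per gene, coloured by the authors' call at an adjusted p under 0.05, with a bar at each list median. Microglial and complement lists have medians between -0.00266 and 0.0108, whereas rod genes lie at a median of -0.140.

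Markers of rods and of macroglia had medians further from 0 than the 6 genes in the same comparison. Over all listed genes 69.1% were called higher and 24.1% lower. Of 16 rod photoreceptor genes 13 were listed, and all 13 were called lower in the authors' deposited table, from -0.0209 for Gnb1 to -0.263 for Rp1, with a median of -0.140. Their shares had a median of 92.4% in WT and 94.6% in KO. Of 18 astrocyte and Müller glia genes 14 were listed, 12 called higher and 2 lower, with a median of 0.0338 in the authors' deposited table. Dbi at 0.103 was the highest and Aqp4 at -0.0288 the lowest of that list in the authors' deposited table. The part of these cells in the values of the microglial and complement genes was not tested. Abca1 itself was called higher in KO, with a log difference of 0.0294 and shares of 48.7% in KO and 30.5% in WT in the authors' deposited table, so these values did not check the genotype labels. Whether the reads of Abca1 fall in its deleted part is not given here, and KO here means cells of the libraries labelled KO.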

How the data were processed

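The submitters' processing notes name the build GRCm38 and, with no role stated, Seurat 3.1.4, Cell Ranger and DESeq2. The test, cell filters, doublet treatment and integration method are not given here. The only file analysed is a table of the authors' comparison that lists 1802 genes, each once, without values per library. Every row has KO in its cluster column, hence the first share was taken as that of KO cells. The authors' deposited log differences carry no base in the header and were read as natural log, by the convention of Seurat at that version. The authors' deposited shares are fractions and are given here as percent. Raw and adjusted p-values are the authors' own. The adjusted value was 2000 times the raw one in all 1554 rows with both above 0 and the adjusted one below 1, which is how Bonferroni adjustment over 2000 features would look, and 198 features would then be unlisted. No raw p above 0.00938 is listed, so the table appears to have been cut by p. The unit of replication is not stated, and if it was the cell, the p-values say nothing of the variation among libraries.

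The genes and the 11 gene lists were chosen with earlier results of these data known, so counts and medians are descriptions, and no set test was run. Besides the 6 genes and Abca1, the text names in each microglial, complement, lysosomal or signalling list up to 6 called genes with the largest absolute log difference, and for each of the 6 genes the 3 most alike. Some genes that this rule selects are not reported. Any further gene is said to have been chosen on sight of its values, except the extremes of the rod and glial lists. Windows hold the 100 genes nearest in share, with ties taken in alphabetical order. Those by share of WT cells were checked on simulated data, and those by share of KO cells were not. Gene positions are from the GENCODE annotation of GRCm38 and promoters from RefSeq, GRCm38.p6. Python 3.11.15, pandas 2.3.3, numpy 2.4.6 and matplotlib 3.10.9 were used. Alternatives were an adjusted p under 0.01, Benjamini-Hochberg adjustment, and log differences read against the median gene or against windows of like share.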

Additional observations from a re-analysis of the deposited data

How the results depend on the processing

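All 6 genes kept their call at an adjusted p under 0.01 and with Benjamini-Hochberg adjustment, which all 1802 listed genes pass because larger p-values were left out. Cx3cr1 went from 0.0190 to -0.000155 when read against the 100 genes nearest in share of KO cells, of which 50 lay below it. It was thus at the middle of that window, and only by sign did the split become 3 higher and 3 lower. No p was recomputed for such readings, and the cause was not tested. The other 5 genes kept their direction under every reading tried. Fits without each library were not run, since no values per library were analysed. No paired analysis was possible because the table holds no values per library. Depth is unknown here, so no lower limit of detection is given.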

Other observations

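Markers of other immune cells were nearly unlisted. Of 13 genes of border and other macrophages 1 was listed, Ms4a6c, with a log difference of 0.00655 and shares of 80.2% in KO and 38.1% in WT in the authors' deposited table. That gain of 42.1 points for Ms4a6c compares with a highest gain of 42.7 points over all listed genes. Of 12 genes of granulocytes and lymphocytes 0 were listed, which does not show that they were unchanged or that these cells were absent.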
